A study of Mus musculus with 9 samples.

Results

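The Hox genes encode homeodomain transcription factors and lie in 4 clusters, Hoxa on chromosome 6, Hoxb on chromosome 11, Hoxc on chromosome 15 and Hoxd on chromosome 2. Members were taken by name, as every gene whose mouse symbol is Hoxa, Hoxb, Hoxc or Hoxd followed by a number from 1 to 13. Of 39 such genes in the reference, 25 had a row in at least 1 of the 2 deposited tables, which together hold 20076 genes. There were 23 Hox genes in the JICD1 table, 23 in the NICD1 table and 21 in both. A Symbol entry named 6 of the 25 members, and the remaining 19 carried an identifier only, 11 of them an Ensembl identifier. The family was chosen by a look at the deposited ratios and scores of both comparisons, so all values below are descriptions. By cluster the members were 9 of 11 Hoxa, 9 of 10 Hoxb, 4 of 9 Hoxc and 3 of 9 Hoxd genes.

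The study sequenced RNA from murine brain astrocytes of the genotype Ink4a-/-, grown in high-glucose medium with serum; Ink4a is a cell cycle inhibitor encoded at the Cdkn2a locus. The labels give this genotype to all 3 groups. The control group received pcDNA puro, an empty puromycin-resistance vector; the JICD1 group received pcDNA HA-JICD1 puro, which carries the tagged intracellular part of the Notch ligand Jagged1; the NICD1 group received pcDNA NICD puro, which carries the intracellular part of a Notch receptor. The labels list 3 libraries in each group and do not say whether they came from separate cultures or clones, nor how long after transfection the RNA was taken.

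Some ratios go against the labels. Jag1, the gene of the ligand, had -1.39 (score 0.759) with JICD1 and 1.36 (score 0.819) with NICD1 in the authors' deposited tables, so it was lower in the group labelled with its intracellular part and higher in the other. Notch1 had 1.33 (score 0.735) and 1.77 (score 0.815) in the same order in the authors' deposited tables, above 0 with both constructs. Whether construct transcripts were counted is not stated. Cdkn2a had 7.59 (score 0.827) with NICD1 in the authors' deposited table, with the control inferred at the floor, defined below, and it had no JICD1 ratio. Its neighbour Cdkn2b, which encodes a related inhibitor, had 11.24 (score 0.991) with NICD1 and 1.81 (control inferred at the floor) with JICD1 in the authors' deposited tables. Signal of Cdkn2a in NICD1 goes against the Ink4a-/- label of those libraries, although a ratio per gene cannot show which product of the locus was read. A difference of the construct and a difference of this locus between the groups cannot be told apart in the comparisons below. Groups are named by their labels.

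Only the authors' own comparisons were analysed, with 1 log2 ratio over control and 1 score between 0 and 1 per gene. The tables used here hold no value per library, which leaves every ratio without replicate error, n or p-value, and the depth unknown. Higher and lower therefore stand for the sign of a ratio, untested. A gene with a score of 0.8 or more is called scored. Some genes have an identical negative ratio in either table, and plotted against their score these trace a curve. Where another gene fell on that curve, a group was taken to sit at a common floor, the value that stands in for no signal, and no fold is given. Both comparisons use the same control libraries, so a control value that is low or high by chance moves both ratios together. In RNA from a whole culture, fewer cells expressing a gene and less RNA per cell cannot be told apart.

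Within each cluster the genes are ordered along the chromosome by paralogue number. Low numbers (1 to 4, here called anterior) act in the hindbrain and neck, middle numbers (5 to 8, central) in the trunk, and high numbers (9 to 13, posterior) in the lumbar and tail regions and the limbs. Genes with the same number in different clusters are paralogues of common descent. The clusters are kept silent by Polycomb complexes and held active by Trithorax-group methyltransferases, they respond to retinoic acid, and their proteins bind DNA with PBX and MEIS partners. Forebrain tissue normally lacks Hox expression.

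The sequences shown lie upstream of genes with large ratios, picked by name from Hoxa and Hoxb genes with a start in RefSeq. The genes are Hoxa9 and Hoxa10, which were lower with both constructs, and Hoxb8, which had the highest Hox ratio with JICD1. Each sequence is the 250 bases before a gene start in GRCm38.p6, and capitals mark the core site of RBPJ, the DNA-binding partner of NICD1.
Hoxa9, chr6:52227371-52227620, minus strand: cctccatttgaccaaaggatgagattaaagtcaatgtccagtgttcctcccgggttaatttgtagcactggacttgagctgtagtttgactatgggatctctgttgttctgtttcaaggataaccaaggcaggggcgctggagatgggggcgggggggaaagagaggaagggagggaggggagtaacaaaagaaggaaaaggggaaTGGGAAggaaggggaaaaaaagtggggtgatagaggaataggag
Hoxa10 distal start, chr6:52240855-52241104, minus strand: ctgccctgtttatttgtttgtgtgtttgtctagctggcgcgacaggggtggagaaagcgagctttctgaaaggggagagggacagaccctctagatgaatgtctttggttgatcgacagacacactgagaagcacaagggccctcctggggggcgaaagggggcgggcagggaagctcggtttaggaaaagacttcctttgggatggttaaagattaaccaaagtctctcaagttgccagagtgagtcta
Hoxa10 proximal start, chr6:52234940-52235189, minus strand: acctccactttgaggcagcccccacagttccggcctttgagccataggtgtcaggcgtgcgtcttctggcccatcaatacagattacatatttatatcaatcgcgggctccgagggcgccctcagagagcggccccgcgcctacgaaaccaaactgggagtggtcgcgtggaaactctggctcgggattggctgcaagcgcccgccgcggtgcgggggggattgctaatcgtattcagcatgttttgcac
Hoxb8, chr11:96281655-96281904, plus strand: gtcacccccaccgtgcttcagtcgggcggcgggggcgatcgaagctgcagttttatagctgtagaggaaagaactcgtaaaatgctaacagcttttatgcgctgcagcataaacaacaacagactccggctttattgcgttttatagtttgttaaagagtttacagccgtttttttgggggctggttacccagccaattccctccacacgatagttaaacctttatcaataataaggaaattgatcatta
The RBPJ core was searched as TGGGAA and, for the other strand, TTCCCA. It was present in 2 of 15 upstream windows of 13 Hox genes, those of Hoxa6 and Hoxa9, and in 21.6% of 32851 windows of all genes. In Hoxa9 it began 44 bases before the start (position -44). The MEIS core TGACAG (other strand CTGTCA) was present in the windows of Hoxa2 and Hoxa3 and in 15.9% of all windows, and the HOX-PBX site TGATTNAT (other strand ATNAATCA) in those of Hoxa2 and Hoxd11 and in 2.82% of all. None of these motifs contains another. The Hox windows had a median CpG observed-over-expected ratio of 0.687 against 0.374 over all windows, and a median GC content of 58% against 52.4%. Within the printed windows this CpG ratio ran from 0.266 in Hoxa9 to 0.974 in Hoxb8. A match describes letters only.

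In the libraries labelled JICD1, called JICD1 below, the Hox genes went both ways, with a block of the Hoxb cluster higher and 6 of 7 posterior genes lower. Of 23 members, 12 had a ratio above 0 (54.5% of all genes) and 11 below (45.5%), and the median was 0.016 against 0.045 over all 18971 genes. The counts hide large values: 6 members lay at a log2 of 1 or more, where 14.5% of all genes did, and 6 at -1 or less, where 14.4% did. Together these 12 compare with 28.9% of all genes at an absolute log2 of 1 or more. Among the 12, Hoxb7 had its control, and Hoxb9, Hoxb13 and Hoxd13 the JICD1 group, inferred at the floor. Scored members were 1 higher (1.07% of all genes) and 1 lower (1.74% of all genes), or 2 of 23 against 2.81%. The one higher was Hoxb6, a trunk patterning gene, listed at 3.35 (score 0.884, 10.2-fold higher) in the authors' deposited table. The one lower was Hoxa10, a gene of the posterior axis, limb and uterus, listed at -2.33 (score 0.835, 5.03-fold lower) in the authors' deposited table. Just below the threshold lay Hoxa7 with 0.746 and Hoxb5 with 0.703 in the authors' deposited table.

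In the NICD1 libraries more members were lower. Of 23 members, 8 had a ratio above 0 (48.5% of all genes) and 15 below (51.5%), with a median of -0.71 against -0.016 over all 19287 genes. There were 3 members at a log2 of 1 or more (16.6% of all genes) and 10 at -1 or less (12.1% of all genes), 13 in all (28.7%). In Hoxb3, Hoxb9, Hoxb13, Hoxc6 and Hoxd13, all at -1 or less, the NICD1 group was inferred at the floor. In Hoxd8, at 1 or more, the control was. The size of these ratios rests on the stand-in value. Without members with a group at the floor the median was -0.41. None was scored higher (1.64% of all genes) and 1 was scored lower (0.97% of all genes; 2.61% in either direction). This was Hoxa10 again, listed at -6.48 (score 0.959) in the authors' deposited table, 89.1-fold lower than control. The next highest score was that of Hoxa7, 0.709, at a log2 ratio of -0.71 in the authors' deposited table.

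**Figure D1:**
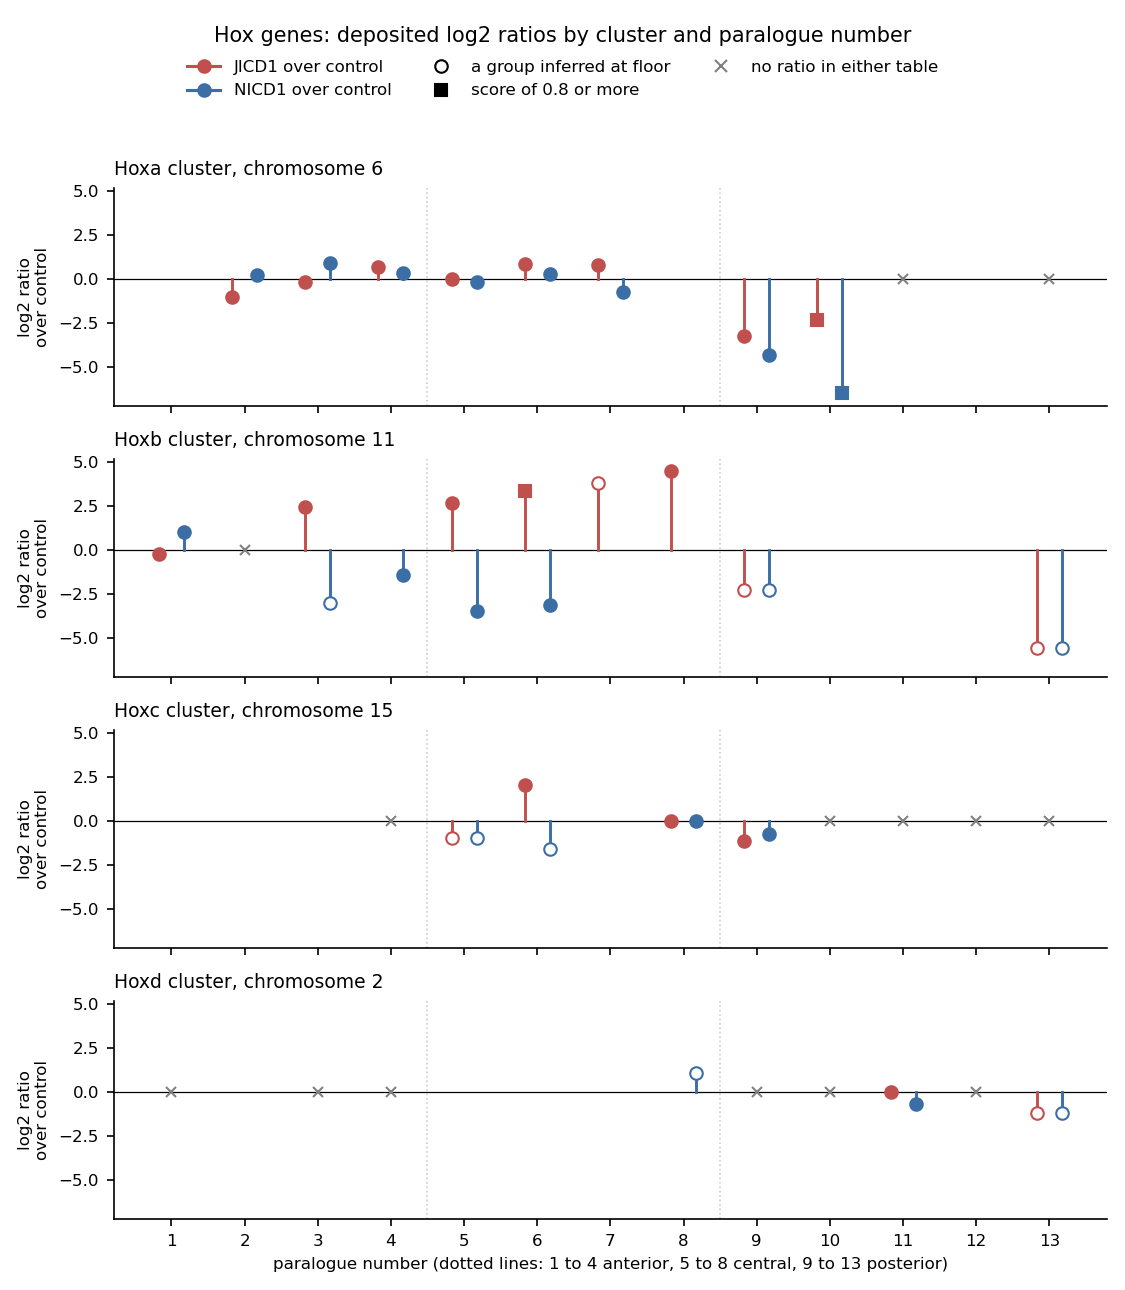
Deposited log2 ratio over control (vertical axis) of each Hox gene by paralogue number (horizontal axis), with a panel per cluster, JICD1 in red and NICD1 in blue. Open circles have a group inferred at the floor, squares a score of 0.8 or more, and crosses mark Hox genes with no ratio in either table, and 1 member is not drawn; Hoxb3 to Hoxb8 stand above 0 with JICD1 and Hoxb3 to Hoxb6 below 0 with NICD1, while Hoxa9 and Hoxa10 are below 0 with both.

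The Hoxb cluster held the widest contrast between the constructs. Hoxb3, which acts in the hindbrain and neck, had a log2 ratio of 2.46 (score 0.444, 5.51-fold higher) with JICD1 in the authors' deposited table. Hoxb5, a gene of the neck and upper trunk, had 2.66 (score 0.703, 6.31-fold higher) with JICD1 in the authors' deposited table. Hoxb3, Hoxb5 and Hoxb6 all had JICD1 ratios above that of any Hoxa gene; Hoxb4, which lies between Hoxb3 and Hoxb5, had none.

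With NICD1 the same 3 genes lay far below control. Hoxb5 had -3.46 (score 0.458, 11.01-fold lower) and Hoxb6 had -3.10 (score 0.593, 8.59-fold lower) with NICD1 in the authors' deposited table. Hoxb3 had -3.02 (score 0.284) with NICD1 in the authors' deposited table, and there NICD1 was taken to sit at the floor. The difference of the deposited ratios, JICD1 minus NICD1, was 5.48 for Hoxb3, 6.12 for Hoxb5 and 6.45 for Hoxb6. A log2 of 1 or more with JICD1 together with -1 or less with NICD1 was found in 4 of the 21 Hox genes present in both tables, these 3 and Hoxc6, and in 0.841% of all genes in both tables. The opposite pattern was found in 0 of the 21 and in 1.37% of all genes. The difference was above 0 in 11 of 21 members (52.5% of all genes) and had an absolute value of 1 or more in 11 of 21 (24.2%).

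Hoxb7 and Hoxb8, further genes of the trunk, had ratios with JICD1 only. Hoxb7 stood at 3.81 (score 0.360) in the authors' deposited table with the control inferred at the floor, and Hoxb8 at 4.48 (score 0.434), the highest ratio of any Hox gene. The score of Hoxb8 differed from the floor curve by -0.0027, just outside the tolerance of 0.002, so whether its control was at the floor was not decided and no fold is given. Medians without members at the floor keep Hoxb8 at that tolerance. Of the 789 genes with a ratio for JICD1 only, 779 were above 0. Among the 666 of these at 1 or more, 631 had a control on the curve. Hoxb4 had a ratio with NICD1 only, -1.39 (score 0.207, 2.61-fold lower) in the authors' deposited table.

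The ends of the Hoxb cluster differed from its middle. Hoxb1, a gene of the hindbrain segment r4, stood at -0.24 (score 0.173) with JICD1 and 1.04 (score 0.313) with NICD1 in the authors' deposited tables. Hoxb9 had -2.27 and Hoxb13, the most posterior Hoxb gene, -5.57 with both constructs in the authors' deposited tables. An equal negative ratio in both tables places both transfected groups at the floor, so of the groups only the control had signal for these 2 genes by this inference. The Hoxb median was 2.56 with JICD1 over 8 genes and -3.02 with NICD1 over 7 genes.

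Non-coding genes inside the Hoxb cluster did not all go the same way. Hoxb5os, an antisense RNA, had 2.12 (score 0.464) with JICD1 and -3.78 (score 0.366) with NICD1 in the authors' deposited tables, with the NICD1 group inferred at the floor. Hoxb3os had 3.81 (score 0.620) with JICD1 and 0.0069 (score 0.118) with NICD1 in the authors' deposited tables. The pseudogene Gm11539 had -1.89 (score 0.428) with JICD1 and -0.70 (score 0.296) with NICD1 in the authors' deposited tables. Gm53 had 2.38 (control inferred at the floor) with JICD1 and 0.85 with NICD1 in the authors' deposited tables. Gm11536 had 3.01 (control inferred at the floor) with JICD1 only in the authors' deposited table. In GENCODE vM21 on GRCm38, 52.9% of the exonic bases of Hoxb3 are shared with Hoxb3os on the opposite strand, and 3.59% of those of Hoxb5 with Hoxb5os. No source used here says whether the counting used strand, so reads of Hoxb3 and Hoxb3os may not be told apart. Outside the cluster the nearest listed genes were Ttll6 at 1.09 (score 0.176) and Gm11531 at 0.052 (score 0.151) with JICD1 in the authors' deposited table. With NICD1, Ttll6 had -0.81 (score 0.160) and Gm11531 0.43 (score 0.243) in the authors' deposited table. Next to them, Gm11537 had 0.58 with JICD1 and -3.33 with NICD1 (NICD1 inferred at the floor) in the authors' deposited tables. Calcoco2 had -1.54 (JICD1 inferred at the floor) and 1.36, and Snx11 -0.13 and 0.35, in the same order in the authors' deposited tables. Over the 100 nearest genes with a JICD1 ratio on both sides of Hoxb the median was -0.034, and over those with an NICD1 ratio -0.058.

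**Figure D2:**
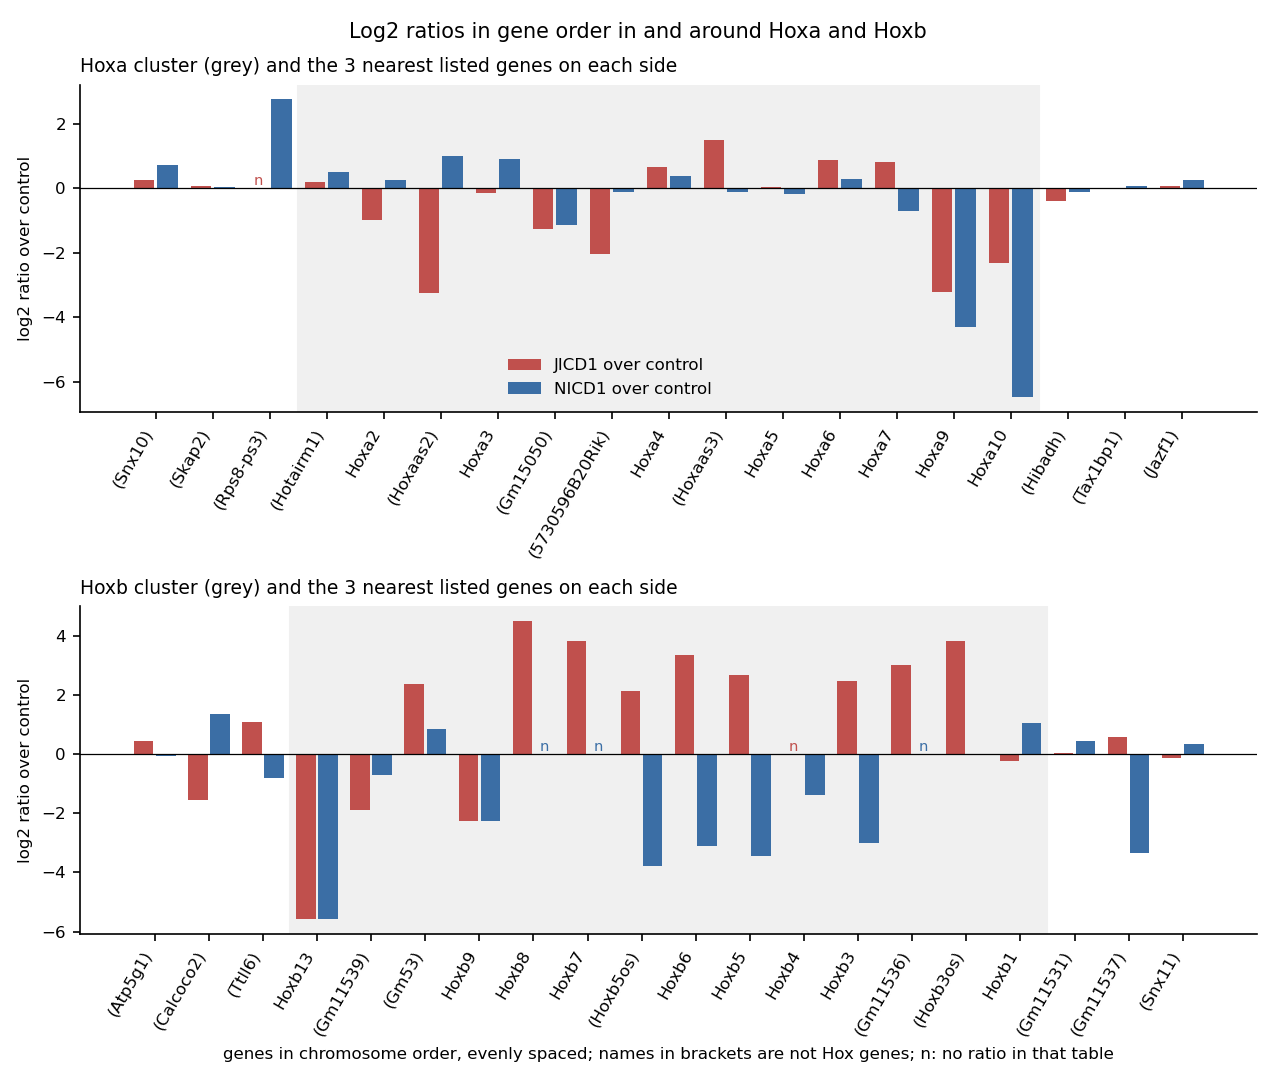
Log2 ratio over control (vertical axis) for listed genes in chromosome order, evenly spaced (horizontal axis), in and around Hoxa (upper panel) and Hoxb (lower panel), JICD1 in red and NICD1 in blue. Grey marks the cluster, brackets mark genes that are not Hox members, n marks a missing ratio and 1 member is not drawn; from Hoxb8 to Hoxb3os every gene with a JICD1 ratio is above 0, and Hoxa9 and Hoxa10 at the end of Hoxa are far below 0 with both constructs while Hibadh next to them is at -0.39 and -0.11.

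In the Hoxa cluster the posterior end had the largest ratios and was lower with both constructs. Hoxa9, a gene of the posterior axis and of blood progenitors, had -3.22 (score 0.571, 9.31-fold lower) with JICD1 and -4.30 (score 0.636, 19.8-fold lower) with NICD1 in the authors' deposited tables. Hoxa10 was lower still with NICD1, at -6.48 against -2.33 with JICD1 in the authors' deposited tables, a difference of 4.15. The next listed gene beyond the cluster, Hibadh, a mitochondrial dehydrogenase gene, had -0.39 with JICD1 and -0.11 with NICD1 in the authors' deposited tables. A log2 of -1 or less in both tables was found in 5 of 21 Hox genes, Hoxa9, Hoxa10, Hoxb9, Hoxb13 and Hoxd13, and in 7% of all genes in both tables. In Hoxb9, Hoxb13 and Hoxd13 both transfected groups were inferred at the floor.

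The 4 Hoxa genes from Hoxa4 to Hoxa7 had smaller ratios. With JICD1 all 4 lay between 0.034 and 0.87, with a median of 0.74. Hoxa7, a trunk gene, was 1.76-fold higher at 0.82 and Hoxa6 1.83-fold higher at 0.87 (score 0.607) with JICD1 in the authors' deposited table. With NICD1 the same 4 lay between -0.71 and 0.38, with Hoxa7 the lowest. Hoxa5, which patterns the neck, lung and diaphragm, was close to control with both, at 0.034 (score 0.175) with JICD1 and -0.17 (score 0.328) with NICD1 in the authors' deposited tables. Hoxa4 stood at 0.67 (score 0.506) and 0.38 (score 0.377) in the same order in the authors' deposited tables.

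Hoxa2 and Hoxa3, near the anterior end of the cluster, went below control with JICD1 and above it with NICD1. Hoxa2, which sets the identity of the second branchial arch, had -0.999 (score 0.343) and 0.26 (score 0.222) in the authors' deposited tables. Hoxa3, a gene of the third arch and thymus, had -0.15 (score 0.188) and 0.92 (score 0.441) in the authors' deposited tables. The JICD1 minus NICD1 differences of these genes lay between -1.26 and -1.07. Hoxb1 had a difference of -1.28, and difference values of -1 or less were found in 13.6% of all genes in both tables.

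Antisense genes lie among the Hoxa genes too. Hotairm1, at the anterior end, had 0.18 (score 0.286) with JICD1 and 0.49 (score 0.510) with NICD1 in the authors' deposited tables. Hoxaas2, which shares 8.36% of the exonic bases of Hoxa3 on the opposite strand, had -3.27 with JICD1, where the JICD1 group was inferred at the floor, and 1.02 with NICD1 in the authors' deposited tables. Hoxaas3, which shares 20.4% of the exonic bases of Hoxa7, had 1.498 (score 0.452) and -0.10 (score 0.160) in the authors' deposited tables. These overlaps limit Hoxa3 and Hoxa7 in the same way as Hoxb3.

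The Hoxc genes had low scores throughout. Hoxc6, a thoracic gene, had 2.05 (score 0.270, 4.14-fold higher) with JICD1 in the authors' deposited table. With NICD1 it had -1.55 (score 0.184), with the NICD1 group inferred at the floor, in the authors' deposited table. Hoxc9, which marks the thoracic spinal cord, had -1.09 (score 0.285) with JICD1 and -0.71 (score 0.246) with NICD1 in the authors' deposited tables. Hoxc5 had -0.93 in both of the authors' deposited tables, with both transfected groups inferred at the floor, and Hoxc8 had 0.020 with JICD1 and 0.021 with NICD1 in the authors' deposited tables, with scores of 0.136 and 0.118, which exceeded none of those of the 300 genes nearest in absolute ratio.

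Genes of chromosome 15, where Hoxc lies, were lower as a group with JICD1. Without Hox genes, the median of its 686 genes was -0.45 and 73.5% were below 0, against medians of 0.041, 0.046 and 0.060 for chromosomes 6, 11 and 2. The 60 listed genes nearest to Hoxc had a median of -0.56 with JICD1, and 49 of them were below 0. The Hoxc median with JICD1 was -0.45, and after the chromosome median was subtracted it was -0.0032. It rests on 4 genes from -1.09 to 2.05, and without Hoxc5, where the JICD1 group was at the floor, it turned to 0.020 before that subtraction. On that scale Hoxc6 stood at 2.50 and Hoxc9 at -0.64. With NICD1 the chromosome 15 median was -0.027, against a Hoxc median of -0.82. How far the chromosome-wide value contributes to the Hoxc ratios was not tested.

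**Figure D3:**
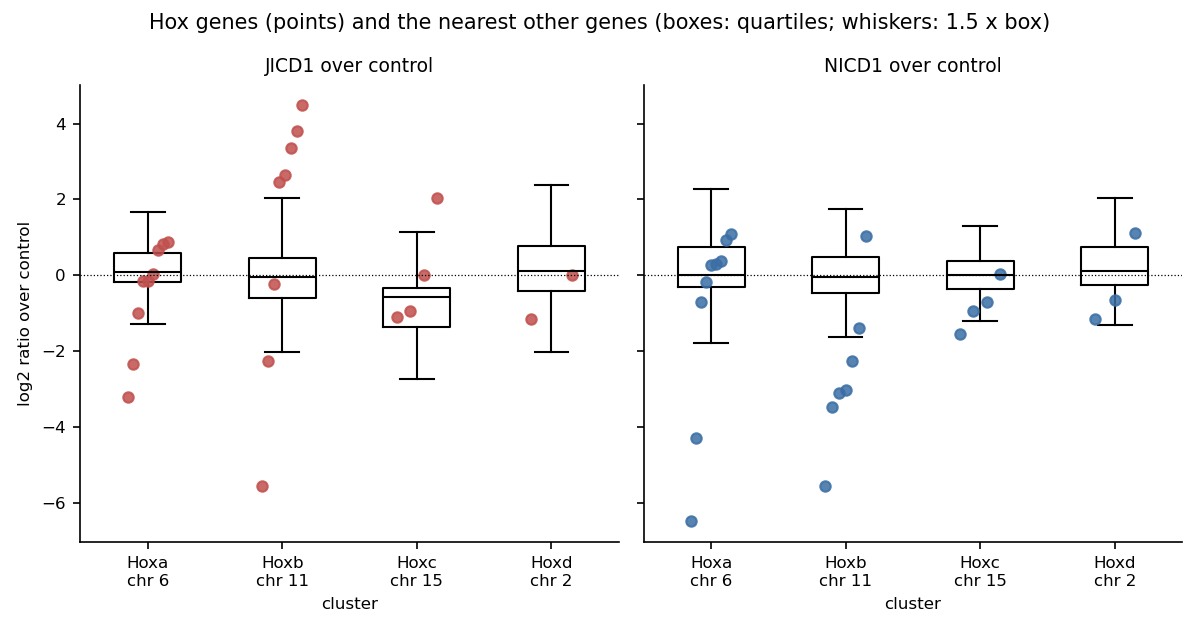
Log2 ratio over control (vertical axis) of Hox genes (points) and of up to 100 listed genes nearest to each cluster (boxes: median and quartiles; whiskers reach the last value within 1.5 box lengths, and values beyond are not drawn) by cluster (horizontal axis), JICD1 left and NICD1 right. The box around Hoxc is centred on -0.56 with JICD1, while those around Hoxa, Hoxb and Hoxd are centred on 0.082, -0.034 and 0.12, and 5 Hoxb genes stand above their box with JICD1.

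In the Hoxd cluster 3 genes were listed, none with a score above 0.2. Hoxd8 had 1.12 (score 0.163) with NICD1 only in the authors' deposited table, with the control inferred at the floor. Hoxd11, a limb and lower spine gene, had 0.016 (score 0.136) with JICD1 and -0.66 (score 0.159) with NICD1 in the authors' deposited tables; ratios this small were not read against the floor curve. Hoxd13, a gene of the digits, had -1.16 in both of the authors' deposited tables, where both transfected groups were inferred at the floor. The genes in neither table were Hoxa11, Hoxa13, Hoxb2, Hoxc4, Hoxc10, Hoxc11, Hoxc12, Hoxc13, Hoxd1, Hoxd3, Hoxd4, Hoxd9, Hoxd10 and Hoxd12, and they are not analysed here.

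Read by paralogue number instead of cluster, the direction varied with the position. Posterior genes (9 to 13) were below 0 in 6 of 7 cases with JICD1 and in 7 of 7 with NICD1, with a median of -2.27 in each. The exception was Hoxd11 with JICD1. The median in each is the ratio of Hoxb9. In Hoxb9, Hoxb13 and Hoxd13 the ratio was equal in both tables and both transfected groups were inferred at the floor. Without genes with a group at the floor the posterior medians were -1.71 with JICD1 and -2.51 with NICD1. Both keep Hoxd11, whose ratios were too small to be read against the floor curve. Its NICD1 score differed from that curve by -2.4e-06. Central genes (5 to 8) were above 0 in 9 of 10 cases with JICD1, with a median of 1.46, and in 3 of 9 with NICD1, with a median of -0.71. The highest with JICD1 were the neighbours Hoxb5 to Hoxb8, from 2.66 to 4.48, while Hoxa5 at 0.034 and Hoxc8 at 0.020 lay close to 0. Without genes with a group at the floor the central medians were 1.46 with JICD1, with Hoxb8 kept, and -0.44 with NICD1. Anterior genes (1 to 4) were above 0 in 2 of 6 cases with JICD1 and in 5 of 7 with NICD1, with medians of -0.15 and 0.38. Over all genes 54.5% were above 0 with JICD1 and 48.5% with NICD1. Members of a cluster share a chromosome region and, for some, exons, so they are not independent points.

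Some paralogue groups shared a sign across clusters. In group 9, Hoxa9, Hoxb9 and Hoxc9 were all below 0 with both constructs, with a median of -2.27 in each table. That median is the ratio of Hoxb9, whose transfected groups were both inferred at the floor. In group 6, Hoxa6, Hoxb6 and Hoxc6 were all above 0 with JICD1, at a median of 2.05, whereas with NICD1 Hoxb6 and Hoxc6 lay below 0 and Hoxa6 at 0.29 in the authors' deposited table. Group 13 consisted of Hoxb13 and Hoxd13, whose transfected groups were at the floor in both. Groups 3 and 5 were mixed with JICD1: Hoxb3 and Hoxb5 were above 2, while Hoxa3, Hoxa5 and Hoxc5 were not above 0.1. The Spearman correlation of paralogue number with the ratio was -0.35 over 23 genes with JICD1 and -0.48 over 23 with NICD1, and -0.098 over 18 and -0.68 over 16 genes without those with a group at the floor. Hoxd11, not read against the floor curve, was kept among the 18 and the 16.

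The score of each Hox gene was also ranked among all genes with similar ratios. Hoxb6 with JICD1 had a score above that of 96% of the 300 genes nearest in absolute ratio, Hoxa10 above 94.3% and Hoxb5 above 87.7%. With NICD1, Hoxa10 was above 93% and Hoxb6 above 90.3%. By contrast Hoxb13, with a larger absolute ratio than Hoxb6, scored above 48% with JICD1, and Hoxd13 above 10.7%. In both of these the JICD1 group was inferred at the floor, which is read from the same scores. How the score is made is not stated. A group was inferred at the floor for 5 of 23 Hox genes with JICD1 (12.8% of all genes) and for 7 of 23 with NICD1 (13.5% of all genes).

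**Figure D4:**
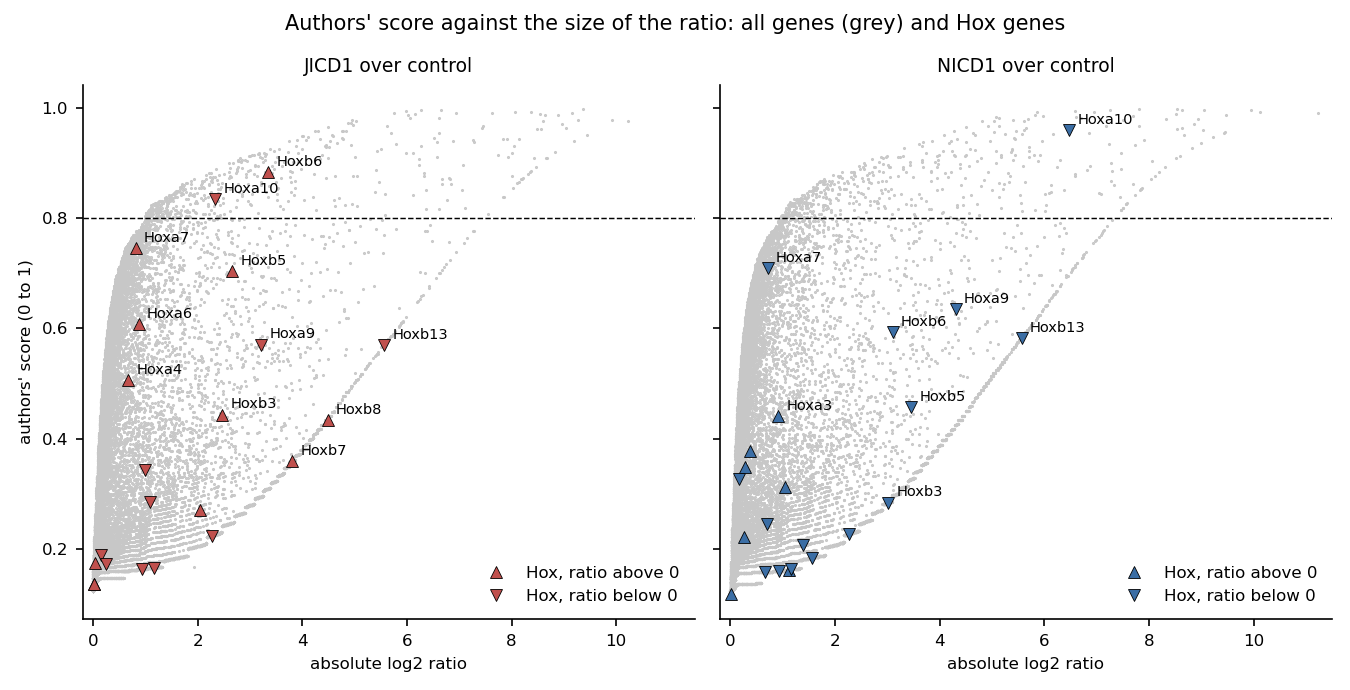
Authors' score (vertical axis) against the absolute log2 ratio (horizontal axis) for all genes (grey) and Hox genes (triangles, 1 member not drawn, pointing up for ratios above 0), JICD1 left and NICD1 right; the dashed line is the score of 0.8. Hoxb6 and Hoxa10 are above the line with JICD1 and Hoxa10 with NICD1, and Hoxb7, Hoxb8 and Hoxb13 with JICD1 lie on or beside the lower edge traced by genes with a group at the floor.

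The listed genes that silence or maintain Hox clusters had ratios within 1 of 0. None of the 19 PRC1 genes, which encode the Polycomb complex that marks histone H2A, reached an absolute log2 of 1 in either table. Their medians were 0.088 with JICD1 and -0.20 with NICD1. The same held for the 11 listed PRC2 genes, which encode the complex that methylates H3K27, with medians of 0.043 and -0.10. It also held for the 14 Trithorax and H3K27 demethylase genes, with medians of 0.061 and -0.17. These 14 ranged from -0.93 to 0.67 with JICD1 and from -0.41 to 0.62 with NICD1. Ezh2, the methyltransferase of PRC2, had 0.41 (score 0.664) with JICD1 and 0.056 (score 0.269) with NICD1 in the authors' deposited tables. Bmi1 of PRC1 had -0.11 and -0.28, and the methyltransferase gene Kmt2a 0.23 and 0.086, in the same order in the authors' deposited tables. No gene of these 3 lists was scored in either table, where 2.81% (JICD1) and 2.61% (NICD1) of all genes were; at these list sizes a count of 0 is near that share. An absolute log2 of 1 or more was reached by 28.9% and 28.7% of all genes.

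Among the 9 cofactor genes of the TALE homeobox class, 1 was scored with JICD1 and none with NICD1, against 2.81% and 2.61% of all genes. Meis3 had -1.47 (score 0.808, 2.77-fold lower) with JICD1 and -1.08 (score 0.781) with NICD1 in the authors' deposited tables. Meis1, a partner of posterior HOX proteins, had -1.67 (score 0.763, 3.18-fold lower) with JICD1 and 0.019 (score 0.138) with NICD1 in the authors' deposited tables. Meis2 was higher in both of the authors' deposited tables, at 0.85 (score 0.715) with JICD1 and 1.14 (score 0.796) with NICD1. The list medians were -0.17 and -0.032.

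Upstream regulators were mixed. Of 16 listed with JICD1, 7 were above 0, none was scored higher and 1 was scored lower; of 17 with NICD1, 13 were above 0 and again 1 was scored lower. Over all genes, 54.5% were above 0, 1.07% scored higher and 1.74% scored lower with JICD1, and 48.5%, 1.64% and 0.97% with NICD1. The scored gene was Rarg, a retinoic acid receptor, at -1.49 (score 0.842) with JICD1 and -1.01 (score 0.806) with NICD1 in the authors' deposited tables; it lies on chromosome 15. Rarb, a receptor gene that is itself induced by retinoic acid, had -0.23 (score 0.173) with JICD1 and 1.81 (score 0.479, 3.50-fold higher) with NICD1 in the authors' deposited tables. The medians were -0.025 and 0.49.

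Genes that mark the forebrain and midbrain, where Hox genes are normally silent, were mostly above 0 in both tables. Of 14 listed with JICD1, 11 were above 0 and 2 were scored higher, with a median of 0.81; of 15 with NICD1, 12 were above 0 and 3 were scored higher, with a median of 0.58. Over all genes 54.5% and 48.5% were above 0, and 1.07% and 1.64% were scored higher. Pou3f3, a neural POU factor gene, had 5.62 (score 0.967) with JICD1 and 6.95 (score 0.993) with NICD1 in the authors' deposited tables. Emx2, a cortical homeobox gene, had 0.79 (score 0.678) and 1.34 (score 0.805) in the authors' deposited tables. The lists were chosen with earlier results of these data known.

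**Figure D5:**
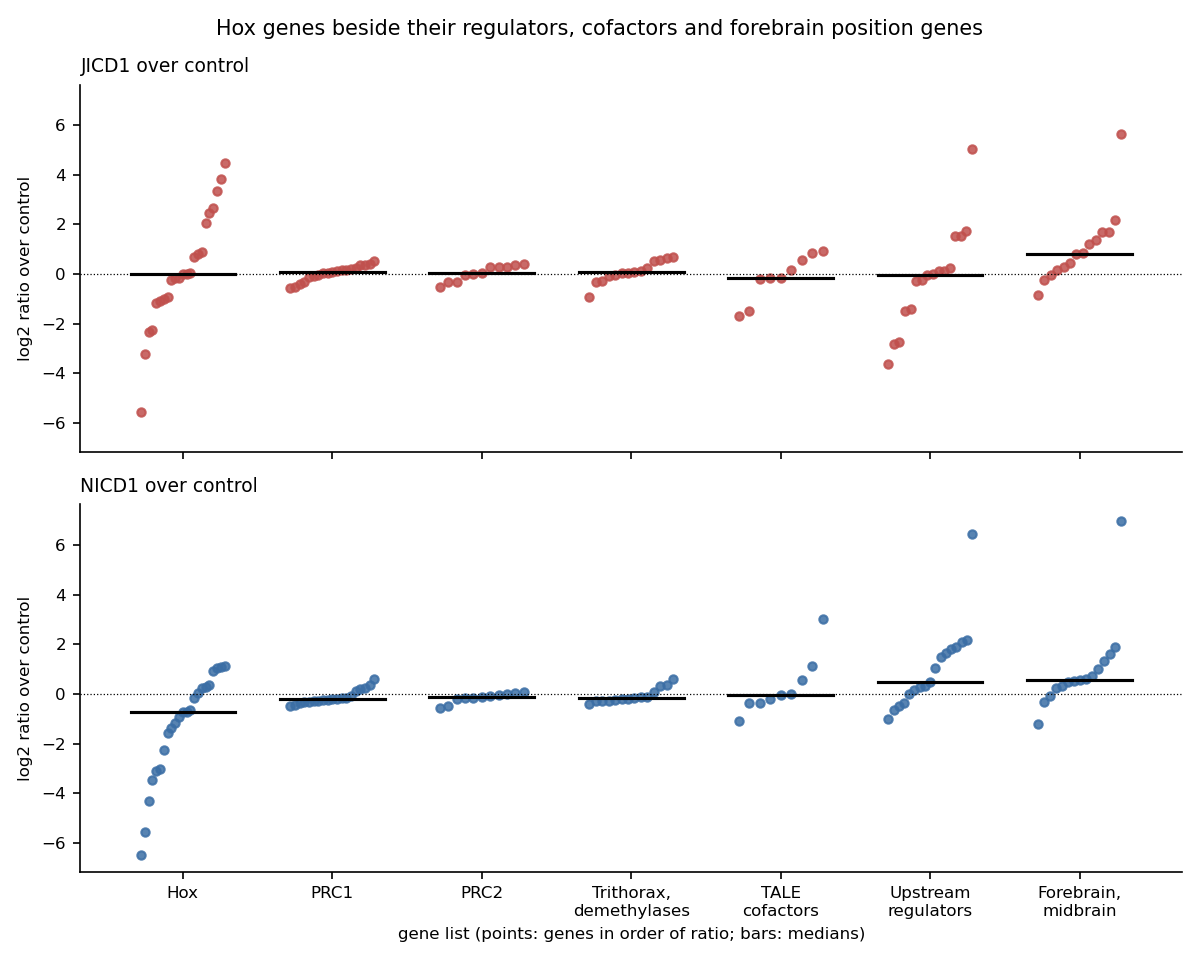
Log2 ratio over control (vertical axis) of Hox genes and of 6 related gene lists (horizontal axis), JICD1 above and NICD1 below; points are genes in order of ratio and bars are medians. The PRC1, PRC2 and Trithorax points stay within 1 of 0, while Hox genes reach from -5.57 to 4.48 with JICD1 and from -6.48 to 1.12 with NICD1.

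Cell type markers in the same tables also had ratios away from 0. Of 12 astrocyte markers 11 were listed and Aqp4 was in neither table, but ratios cannot show their level. The astrocyte medians were -0.72 with JICD1 and -0.69 with NICD1, but the genes went both ways. With JICD1, 4 of 11 were above 0 (54.5% of all genes). In the authors' deposited table Nfia was scored higher at 3.77 (1.07% of all genes) and Clu lower at -3.88 (1.74%). With NICD1, 3 of 11 were above 0 (48.5% of all genes). Clu at -2.30 and Sox9 at -1.64 were scored lower in the authors' deposited table (0.97% of all genes). None was scored higher with NICD1 (1.64%). Fibroblast and pericyte markers moved with the JICD1 group: 5 of 5 were below 0 and 4 were scored lower, from -8.67 to -0.78, against 45.5% and 1.74% of all genes. The lowest was Dcn, where the JICD1 group was inferred at the floor. With NICD1, 3 of 6 were below 0, Col1a1 was scored higher at 1.74 and Dcn scored lower at -5.08 in the authors' deposited table. Of 5 neuron markers with NICD1, 3 were scored higher (1.64% of all genes) and 1 lower (0.97%). The higher ones were Map2 at 3.95, Gap43 at 3.96 and Stmn2 at 2.76 and the lower one Tubb3 at -3.67 in the authors' deposited table. With JICD1, Map2 (3.02) was scored higher and Tubb3 (-2.16) scored lower in the authors' deposited table. These markers were named after their values were seen. Microglia markers were below 0 in 5 of 6 cases with JICD1 (45.5% of all genes) and above 0 in 5 of 6 with NICD1 (48.5%). With JICD1, 1 of them was scored lower (1.74% of all genes), at -8.48, and another had its JICD1 group inferred at the floor. With NICD1 none was scored (2.61% of all genes). The part of any of these cell types in the Hox ratios was not tested.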

How the data were processed

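The submitters' processing notes list Bowtie2, BWA and mm9 without role or version. Read counting, its use of strand and the joining of libraries into a group value are not given in the sources used here. A further step in the labels' protocols is a kit that enriches methylated DNA, with no word on which libraries it served. The authors deposited 2 tables, each with a log2 ratio of a transfected group over control, per the file headers. The second value per gene is headed Probability, per the file headers, and is called the authors' score here (from 0 to 1, not a p-value). The tables held 0 unused numeric columns. Depth is unknown.

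Names came from the tables, from NCBI and from GENCODE vM21 (GRCm38), which gave a name to 19772 and a chromosome to 19668 of 20076 genes; that annotation served for names and gene order, and its coordinates are printed only for the RefSeq upstream sequences. Rows were joined and summarised with pandas 2.3.3 in Python 3.11.15. There were 694 genes with equal negative ratios in both tables (tolerance 1e-06) and 1 with an equal positive ratio; the former traced the floor curve. Genes within 0.002 of it (0.01 above a log2 of 6) at an absolute ratio of 1 or more were read as having 1 group at that floor. The inference was tested on simulated data. The score threshold of 0.8 is not a significance level. Ranks of the score used the 300 genes nearest in absolute ratio. Nearest genes were up to 50 with a ratio on each side of a cluster.

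Members and lists were chosen with earlier results of these data known, and support nothing by themselves. Named genes were all Hox members, scored genes of the lists (up to 4 a list), Ezh2, Bmi1, Kmt2a, Meis1, Meis2 and Rarb, and cluster neighbours; non-coding genes inside the clusters were added after their values were seen. Some genes that the rule would name are not reported here, though counts and medians include them. The planned count test was not possible without values per library.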

Additional observations from a re-analysis of the deposited data

How the results depend on the processing

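Of 50 alternatives, 25 left a result within 0.1 of a log2, or a count within 1.5 times, with its sign kept; 19 moved it further and 6 turned a sign. No paired analysis was possible because the tables hold no value per library, and leaving out each replicate was not run for the same reason. The number of called Hox genes was 2 with JICD1 and 1 with NICD1; at a score of 0.7 it was 4 and 2, at 0.9 it was 0 and 1, and by an absolute log2 of 1 alone it was 12 and 13. The JICD1 median of 0.016 turned to -0.029 after the median of all genes and to -0.044 after chromosome medians were subtracted, and to -0.15 both in members of both tables and without Hoxb, so it has no stable sign. The NICD1 median of -0.71 was -0.41 without members at the floor (at either tolerance, 0.005 being added after the data were seen) and without Hoxb, -1.27 without Hoxa and -0.82 without Hoxd. The median difference of 0.20 was 0.42 after chromosome medians were subtracted and 0 without Hoxa.

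The Hoxc median with JICD1 was -0.0032 after chromosome medians were subtracted. Leaving out members at the floor was added for clusters and positions after the data were seen. With JICD1 it turned Hoxc to 0.020 and Hoxd to 0.016, where 1 gene was left, and moved the posterior median to -1.71. With NICD1 it moved Hoxb to -2.24, Hoxc to -0.34, anterior genes to 0.65, central genes to -0.44 and posterior genes to -2.51. Hoxd11 and Hoxb8 were not counted as members at the floor in these medians. The Hoxb median with JICD1 stayed between 2.51 and 2.66. Depth, and so the precision of every ratio, is unknown.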

Other observations

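Homeobox and T-box genes of the limb and body axis outside the Hox clusters were read from a further list of 20, of which 14 were in at least 1 table. With JICD1 the list had 2 scored lower and none scored higher among 10 listed genes, where 1.74% and 1.07% of all genes were; the median was -0.27, and 0.061 without Meox1, whose JICD1 group was inferred at the floor. Prrx2, a homeobox gene of limb and craniofacial mesenchyme, had -2.95 (score 0.903, 7.74-fold lower) and its relative Prrx1 -1.60 (score 0.848, 3.04-fold lower) with JICD1 in the authors' deposited table. With NICD1 they had -0.44 (score 0.662) and 0.54 (score 0.720) in the authors' deposited table. Msx2, a homeobox gene that responds to bone morphogenetic proteins, was the scored member with NICD1, at 7.84 (score 0.851) with the control inferred at the floor in the authors' deposited table, and it had no JICD1 ratio.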
